A study of Mus musculus with 3 samples.

Results

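The cells described here are aortic cells with RNA of T, NK or innate lymphoid cells and no detected Rag1, 172 of the 8284 cell barcodes kept over 3 libraries. They were chosen by their own counts. A barcode had no unique molecular identifier (UMI, 1 per captured RNA molecule) of Rag1, at most 2 UMIs over 6 cell-cycle genes and at most 2 over the complement genes C1qa, C1qb and C1qc. It also had at least 3 UMIs over at least 2 of the 8 genes Ms4a4b, Il7r, Cd2, Nkg7, Gzma, Cd5, Thy1 and Skap1, with at least 1 UMI of Ms4a4b, Il7r, Nkg7 or Gzma. These genes chose the cells, so their levels are given as a description and support nothing. By this rule 38 cells were found in the LPS library, 16 in control 1 and 118 in control 2.

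Single-cell RNA was measured with the 10x 3' v3 kit in cells dislodged from the aortic arch at its lesser curvature, where only the intima (the innermost layer of the wall) was taken. The LPS library came from wildtype C57Bl/6J mice injected intravenously with 30 µg of ultrapure lipopolysaccharide (LPS), the outer-membrane component of Gram-negative bacteria that Toll-like receptor 4 detects, 18 h before harvest. Both control libraries came from untreated mice of the same strain, for which the labels give no vehicle injection. All mice were 12 to 13 weeks old, each library pooled males and females, 5 to 10 animals in all, and all tissue was perfused with actinomycin D, a blocker of transcription, before digestion with collagenase D and DNase I.

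T cells recognise peptides through a rearranged receptor that signals through the CD3 chains, NK cells kill through granzymes and perforin under the control of germline-encoded receptors, and innate lymphoid cells release cytokines without a rearranged receptor. The recombinase Rag1 cuts receptor genes in developing lymphocytes, mostly in the thymus for T cells, and is off in mature T, NK and innate lymphoid cells. LPS acts first on myeloid and endothelial cells. In lymphocytes the interferons, cytokines and glucocorticoids that follow are known inducers of antiviral genes, cytotoxic genes and stress-hormone genes.

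The libraries differed before any gene was compared. The gated cells held 359766 UMIs in the LPS library, 137408 in control 1 and 729037 in control 2, with medians of 7908, 6958 and 5993 UMIs per cell in that order. The median mitochondrial share was 3.18% in the LPS library, 4.52% in control 1 and 9.29% in control 2, and Gm42418, a ribosomal RNA-like transcript, took 9.75%, 4.70% and 1.03% of the UMIs. As a share of kept barcodes the gated cells made up 0.737% in the LPS library (exact Clopper-Pearson 95% interval 0.522 to 1.01), 3.71% in control 1 (2.14 to 5.96) and 4.38% in control 2 (3.63 to 5.22). Intervals cover counting error only, and dissection and barcode selection can set such shares. The LPS library and control 2 shared 1 kept barcode, and none was shared among the gated cells. Doublets were not removed.

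Rag1 decided more of the membership in the controls than in the LPS library. Requiring no Rag1 removed 19 of 60 cells that met the lymphoid genes in the LPS library (31.7%), 31 of 49 in control 1 (63.3%) and 321 of 463 in control 2 (69.3%). With every other step kept, 15, 18 and 203 cells with Rag1 would have entered, in the order LPS, control 1 and control 2. The threshold itself touched few cells. In the LPS library 2 cells had 3 UMIs of the gate genes and 2 lay just outside with 2, while control 1 had 0 inside and 0 outside and control 2 had 2 inside and 1 outside.

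Of the genes that chose the cells, Il7r, the receptor chain for interleukin 7, stood at 559 CPM (UMIs per 1000000 summed UMIs of the gated cells) in the LPS library, against 226 in control 1 and 321 in control 2. Gzma, a granule protease, stood at 2635 CPM in the LPS library, against 640.4 and 198 in control 1 and control 2, and 76.1% of its LPS UMIs came from 1 cell. Ms4a4b had 500.3 CPM in the LPS library, 822 in control 1 and 605 in control 2, and the T-cell surface gene Cd5 had 80.6, 211 and 403 CPM in that order.

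Against markers not used by the rule, most gated cells matched T cells. At a minimum of 2 UMIs, none matched NK or innate lymphoid cells without T markers. At least 2 UMIs of the T-cell receptor and CD3 genes Cd3d, Cd3e, Cd3g, Trac, Trbc1 and Trbc2 were found in 31 of 38 cells in the LPS library (81.6%, 65.7 to 92.3), 15 of 16 in control 1 (93.75%, 69.8 to 99.8) and 117 of 118 in control 2 (99.2%, 95.4 to 99.98). Their median was 21 UMIs per cell in the LPS library, against 50.5 in control 1 and 49 in control 2. No cell in any library carried at least 2 UMIs of NK markers, or of markers of group 2 innate lymphoid cells, while staying under 2 UMIs of T markers. With 38, 16 and 118 cells this allows a share of up to 9.25% in the LPS library by the exact interval, at this minimum only. At a minimum of 3 UMIs, 1 LPS cell matched NK cells. A further LPS cell and 1 cell of control 2 then matched group 2 innate lymphoid cells by marker count. The cell of control 2 was led by Siglech and Irf8, genes of plasmacytoid dendritic cells, so its match does not make it an innate lymphoid cell. After thinning to 1000 UMIs, 3 LPS cells, 1 cell of control 1 and 2 of control 2 matched NK cells. Of the thinned LPS cells 1 matched group 2 innate lymphoid cells. The cells are therefore called gated cells below, and those with at least 2 T-marker UMIs T-marker cells.

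**Figure D1:**
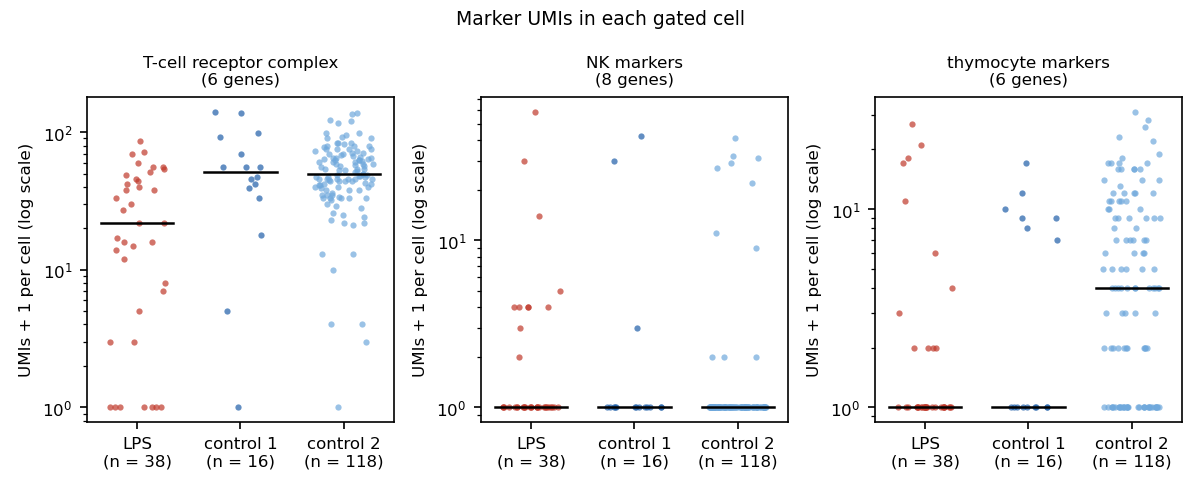
UMIs per gated cell, plus 1 on a log axis, of 6 T-cell markers, 8 NK markers and 6 thymocyte markers in the LPS library (n = 38 cells), control 1 (n = 16) and control 2 (n = 118), with 1 point per cell and a black bar at the median. Median T-marker UMIs were 21, 50.5 and 49, the median NK-marker count was 0 in every library, and the median thymocyte-marker count was 0, 0 and 3, in the order LPS, control 1 and control 2.

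NK markers were carried by a minority, beside T markers. At least 2 UMIs of the receptor genes Ncr1, Klrb1c, Klre1, Klra4, Klra7, Klra8 and Klra9 and the transcription factor gene Eomes were found in 10 LPS cells (26.3%), 3 cells of control 1 (18.75%) and 8 of control 2 (6.78%). They exceeded the T-marker UMIs in 3, 1 and 3 cells, in the order LPS, control 1 and control 2. The cell with the most, in the LPS library, had 58 NK-marker and 16 T-marker UMIs, and the maxima of the controls were 41 in control 1 and 40 in control 2. Markers of gamma delta T cells reached 2 UMIs in 5 LPS cells, 3 cells of control 1 and 11 of control 2. A single LPS cell had 84 UMIs of markers of group 2 innate lymphoid cells with 2 T-marker UMIs, and 64 of these were Calca, which encodes calcitonin gene-related peptide.

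Markers of thymic development were much more common in the controls. The genes Rag2, Dntt, Ptcra, Arpp21, Cd1d1 and Ccr9 gave at least 2 UMIs in 8 LPS cells (21.1%), 7 cells of control 1 (43.75%) and 74 of control 2 (62.7%). At least 1 UMI of these genes was found in 12 LPS cells, 7 cells of control 1 and 85 of control 2. Ccr9 was detected in 7, 7 and 79 cells in that order, so in the controls it carried most of the list. Cells of other types were also counted. An Igkc-led LPS cell without T markers had 26 UMIs of the list, and a Siglech-led cell of control 2 had 15. Cd4 and Cd8a or Cd8b1 were detected together in 0 LPS cells, 0 cells of control 1 and 27 of control 2, which is a pattern known from immature thymocytes. Neither coreceptor was detected in 23 LPS cells, 6 cells of control 1 and 29 of control 2. Control cells without a Rag1 UMI thus included many with thymocyte markers, and thymocyte-marker values stand beside the results below.

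Most of the 7 LPS cells without T markers were led by genes of other cells. A pair of them, 1 with 33661 UMIs, were led by antibody and class II genes such as Igkc and Cd74. Another 3 were led by Wfdc17, Hp, Saa3, Rsad2 or Cxcl10, genes of inflammatory myeloid cells, and 1 of these held 1034 of the 1066 Saa3 UMIs. In 1 cell Ifitm1 (108 UMIs), Ccl3 (71 UMIs) and Hdc led. The remaining cell, of 2336 UMIs, had 25.1% Gm42418, and its leading genes, among them Ikbke, Lcn2 and Mt2, left its type unclear. The single such cells of control 1 and control 2 were led by Igkc, Cd79 genes and Ms4a1. Another cell of control 2 counted as a T-marker cell with 2 such UMIs but was led by genes of plasmacytoid dendritic cells, Siglech (38 UMIs) and Irf8 (63 UMIs). Cells without T markers held 92421 of the LPS UMIs, 25345 of control 1 and 9762 of control 2.

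Markers of other cell types also differed between the libraries within the T-marker cells. The 9 smooth muscle markers summed to 415 CPM in the LPS T-marker cells, 277 in control 1 and 3645 in control 2, with medians of 3, 1 and 23 UMIs per cell. The 13 macrophage markers summed to 52.4, 8.92 and 181 CPM, 10 fibroblast markers to 254, 116 and 815 CPM, and 10 B-cell markers to 131, 107 and 161 CPM, in the order LPS, control 1 and control 2. The 10 red cell and platelet markers, mostly haemoglobin, summed to 2510 CPM in the LPS T-marker cells, against 250 and 188 CPM, but 533 of the 671 LPS UMIs came from 1 cell and the medians were 4, 2 and 1 UMIs per cell. The 11 dendritic and class II markers summed to 116, 17.8 and 562 CPM, again in the order LPS, control 1 and control 2. The 13 endothelial markers, which include Lcn2, summed to 486, 71.4 and 615 CPM, with medians of 4, 0 and 3 UMIs per cell. In the LPS T-marker cells the 10 neutrophil markers summed to 41.1 CPM, against 0 in control 1 and 2.78 in control 2. In all gated cells B markers reached 1323 CPM in the LPS library, 3231 in control 1 and 466 in control 2, with 2, 2 and 1 of the 10 markers at 0. The part of these cells in the results below was not tested except where a value is given.

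In all gated cells 120 of 6256 genes tested were higher with LPS (1.92%) and 20 were lower (0.32%), at an adjusted p under 0.05 by edgeR's quasi-likelihood test on UMIs summed per library. DESeq2 called 29 higher and 0 lower, with 197 at an unadjusted p under 0.05. The test sets 1 LPS library against 2 controls and assumes that the lone LPS library varies as the controls do. In the T-marker cells, tested after the other cells had been found, 145 of 5085 genes were higher (2.85%) and 62 lower (1.22%), against 14 and 0 by DESeq2 with 132 at an unadjusted p under 0.05. In T-marker cells with no thymocyte-marker UMI, 21 in the LPS library, 8 in control 1 and 32 in control 2, 68 of 3420 genes were higher (1.99%) and 27 lower (0.789%). With T-marker cells under 2 NK-marker UMIs, 107 of 3737 genes were higher (2.86%) and 52 lower (1.39%). These 3 subset tests are alternatives chosen after seeing the data. From here on a value ± SE is the fitted log2 difference, LPS minus controls, in all gated cells unless another set is named. The SE was derived from the test statistic and can be too small where a group has few UMIs.

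Many of the higher genes came from few cells. Of the 120, 61 had at least 50% of their LPS UMIs in cells without T markers, and 28 had at least 50% in 1 cell. All 20 lower genes were also lower in the T-marker cells, and 71 of the 120 higher genes were also higher there, of 90 that could be tested.

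Genes of the type I interferon response made up the largest count of increases among the lists described, in the list with the most genes tested. These genes are induced through the interferon receptor and encode antiviral effectors. Of 44 tested genes of the list, 18 were higher and 0 lower, against 1.92% higher over all genes tested. Their median log2 difference was 2.40, against -0.06 over all genes tested. In T-marker cells 22 of 38 were higher and 0 lower, with a median of 2.12, against -0.05 over all genes tested there. In T-marker cells without thymocyte markers 8 of 32 were higher and 0 lower, with a median of 1.45.

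Isg15, a ubiquitin-like modifier, had 217 UMIs in the LPS library, 10 in control 1 and 71 in control 2, or 603, 72.8 and 97.4 CPM. It was detected in 31 LPS cells (81.6%), 6 cells of control 1 (37.5%) and 24 of control 2 (20.3%), and in 36.8%, 0% and 3.39% after each cell was thinned to 1000 UMIs. The LPS level lay above both controls (2.82 ± 0.45, adjusted p = 0.0054; 2.56 ± 0.47 in T-marker cells, adjusted p = 6.68e-06). Ifit3, which encodes an RNA-binding antiviral protein, had 256 CPM in the LPS library, against 14.6 and 24.7 in control 1 and control 2 (3.59 ± 0.47, adjusted p = 0.00164). Irf7, the transcription factor that amplifies the interferon response, had 149 UMIs in 33 LPS cells, 0 in control 1 and 15 in 12 cells of control 2 (4.80 ± 0.61, adjusted p = 0.00126; 3.67 ± 0.58 in T-marker cells). In T-marker cells without thymocyte markers Isg15 and Irf7 were also higher, by 2.17 (adjusted p = 0.000524) and 3.40 (adjusted p = 0.000126).

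The antiviral gene Rsad2 had 292 CPM in the LPS library, 0 in control 1 and 6.86 in control 2 (5.74 ± 0.60, adjusted p = 0.000354), but in T-marker cells it lost its call without its highest cell in each library (adjusted p = 0.244). Xaf1, a promoter of apoptosis, had 261 CPM in the LPS library, against 21.8 and 38.4 (3.02 ± 0.46, adjusted p = 0.00393). Zbp1, a sensor of Z-form nucleic acids, had 403 CPM, against 58.2 and 80.9 (2.52 ± 0.44, adjusted p = 0.00981), and both genes were also higher in T-marker cells, by 2.76 ± 0.52 and 2.27. Ly6a, the stem cell antigen Sca-1, was not called in all gated cells (619.8 CPM in the LPS library, against 291 and 96 CPM, adjusted p = 0.28). In T-marker cells its level was 628 CPM with LPS, against 17.8 and 64 CPM (3.69 ± 0.48, adjusted p = 1.2e-11). Ifit3 and Ifit3b are near-identical copies whose reads may be split, so each single value is uncertain.

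Promoters of the interferon genes are shown because their members moved together. The interferon-stimulated response element has the core GAAANNGAAA, 10 letters, searched on both strands in the 250 bases before each start with overlapping matches counted. Counted per gene, over all promoters the table gives for it, it was found for 16 of the 37 list genes with a promoter (43.2%), for 8 of the 16 with one among those higher in T-marker cells (50%), and for 936 of all 27025 genes (3.46%). The 3 examples below, from RefSeq on GRCm38.p6, read 5′ to 3′ on the strand of the gene, with matches in capitals. Ifit3 (chr19:34583279-34583528, plus strand) held 2 matches, Isg15 (chr4:156200819-156201068, minus strand) 3 that overlap, and Rsad2 (chr12:26456453-26456702, minus strand) 1.
Ifit3: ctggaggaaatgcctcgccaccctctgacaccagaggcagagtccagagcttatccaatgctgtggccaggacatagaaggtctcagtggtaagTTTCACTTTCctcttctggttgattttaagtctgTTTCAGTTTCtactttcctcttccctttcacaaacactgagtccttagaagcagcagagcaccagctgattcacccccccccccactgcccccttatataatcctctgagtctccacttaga
Isg15: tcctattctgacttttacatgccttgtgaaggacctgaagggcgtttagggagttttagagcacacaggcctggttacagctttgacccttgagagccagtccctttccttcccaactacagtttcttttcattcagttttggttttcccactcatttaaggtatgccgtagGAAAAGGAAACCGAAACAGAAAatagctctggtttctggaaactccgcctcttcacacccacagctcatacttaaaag
Rsad2: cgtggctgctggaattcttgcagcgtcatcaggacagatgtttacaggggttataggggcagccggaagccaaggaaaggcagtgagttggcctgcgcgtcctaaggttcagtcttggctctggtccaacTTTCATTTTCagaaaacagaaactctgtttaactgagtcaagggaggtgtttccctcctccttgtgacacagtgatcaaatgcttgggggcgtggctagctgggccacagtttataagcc
In the Ifit3 promoter both matches read on the minus strand as TTTC pairs, in Isg15 they run on the gene's own strand, and the Irf7 promoter (chr7:141266425-141266674, minus strand) held none in this window. A match is a description of the letters and not of binding.

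Guanylate-binding proteins and immunity-related GTPases attack vacuoles of intracellular microbes and are induced mostly by interferon gamma. Of 12 tested genes 6 were higher, 0 lower and 6 not called (median 2.34), and in T-marker cells 5 of 10 were higher (median 2.05). The share called was larger than the 18 of 44 of the interferon list in all gated cells. In T-marker cells it was smaller than the 22 of 38 of that list. Gbp2 had 361 CPM in the LPS library, against 36.4 in control 1 and 39.8 in control 2 (3.27 ± 0.45, adjusted p = 0.00236), and Gbp7 had 414 CPM, against 72.8 and 96 (2.29 ± 0.44, adjusted p = 0.0159). Gbp5, with 161 CPM in the LPS library, against 0 and 9.6, was called in all gated cells (4.44 ± 0.65, adjusted p = 0.0032) but not in T-marker cells (adjusted p = 0.192). Of 18 tested genes for MHC class I and the immunoproteasome, which make and load peptides, 2 were higher. Tap1, the peptide transporter, had 272 CPM in the LPS library, against 50.9 and 79.6 (2.03 ± 0.43, adjusted p = 0.0345), and H2-Q6, whose reads may be shared with H2-Q7, had 178 CPM, against 50.9 and 37 (2.15 ± 0.48, adjusted p = 0.0406).

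Glucocorticoid-responsive and metal-response genes were another such group. Of 16 tested genes 4 were higher and 0 lower (median 1.49), and in T-marker cells 7 of 14 (median 1.96). Mt2, a metallothionein that binds zinc and copper, had 111 UMIs in 34 of the LPS cells, 0 in control 1 and 8 in 8 cells of control 2 (5.19 ± 0.59, adjusted p = 0.000577). Its partner Mt1 had 151 UMIs in the LPS library, against 1 and 38 (3.53 ± 0.56, adjusted p = 0.0051). Fkbp5, a co-chaperone of the glucocorticoid receptor, had 347 CPM in the LPS library, against 29.1 and 43.9 (3.20 ± 0.45, adjusted p = 0.00255). Dusp1, a phosphatase of MAP kinases, had 400.3 CPM in the LPS library, against 0 and 56.2 (3.45 ± 0.67, adjusted p = 0.0173), and without control 2 its difference was 6.63. Tsc22d3, which encodes the glucocorticoid-induced leucine zipper, passed in T-marker cells and not in all gated cells (adjusted p = 0.0711), with 355 CPM in LPS T-marker cells, against 44.6 and 76.5 (2.47 ± 0.48, adjusted p = 3.09e-05). The metabolic brake Txnip was at 883 CPM there, against 196 and 234 (2.06 ± 0.49, adjusted p = 0.0015).

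**Figure D2:**
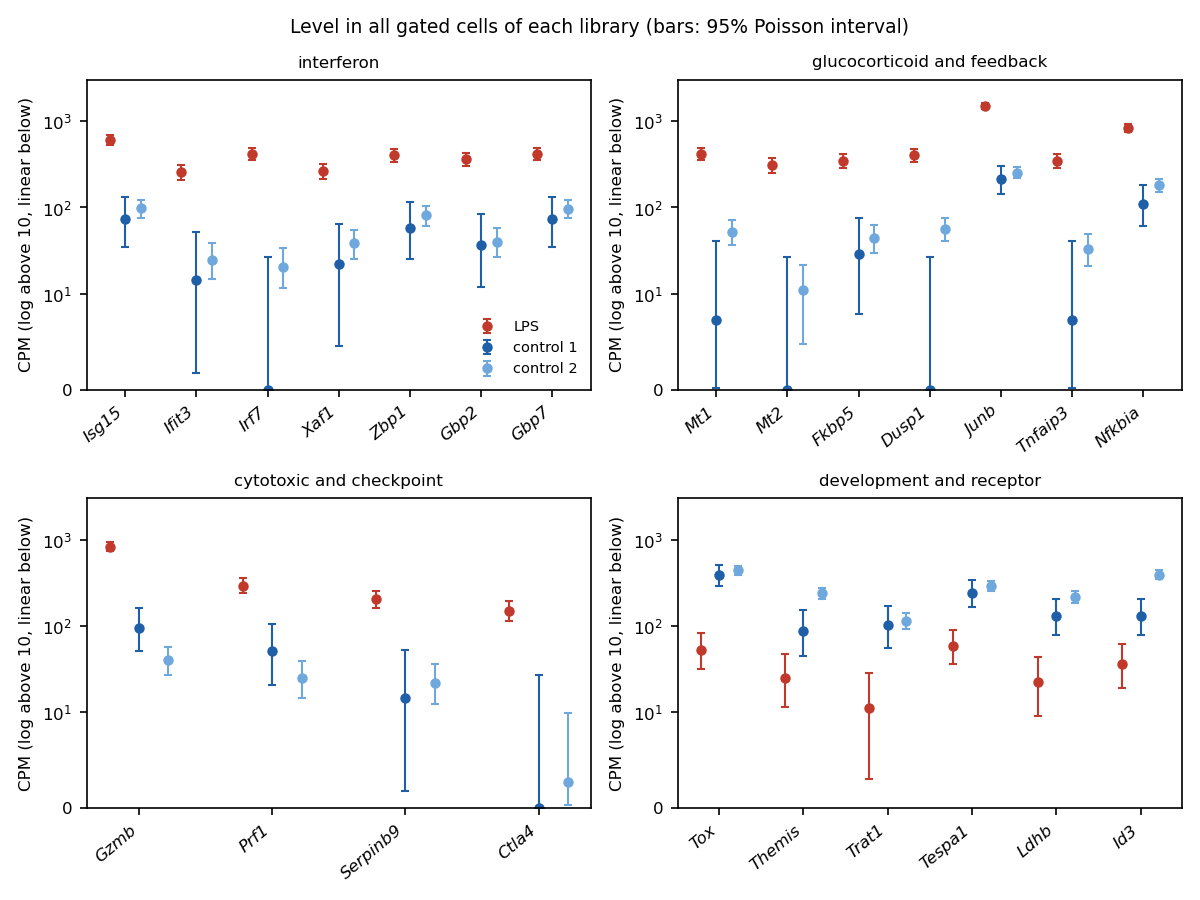
Level of 24 genes in all gated cells, in CPM with exact Poisson 95% intervals, in the LPS library, control 1 and control 2, on an axis that is linear below 10 and logarithmic above. Genes of the interferon, glucocorticoid and feedback, and cytotoxic and checkpoint panels lie higher in the LPS library than in both controls (Isg15 at 603, against 72.8 and 97.4), and those of the development and receptor panel lie lower (Tox at 52.8, against 386 and 438).

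Immediate-early and NF-kB feedback genes rose in part. Of 21 tested immediate-early genes, which respond to activation and also to cell isolation, 5 were higher and 0 lower (median 1.01), and 7 of 20 in T-marker cells (median 0.89). Junb, an AP-1 subunit, had 1501 CPM in the LPS library, against 211 in control 1 and 254 in control 2 (2.70 ± 0.52, adjusted p = 0.0159). Cd69, an early activation marker of lymphocytes, stood at 63.9 CPM in the LPS library, against 50.9 and 170.1, and did not pass (adjusted p = 0.686). Of 21 NF-kB and feedback genes 3 were higher and 0 lower (median 1.23). Tnfaip3, the ubiquitin editor A20 that shuts NF-kB off, had 345 CPM in the LPS library, against 7.28 and 32.9 (3.80 ± 0.52, adjusted p = 0.00208), and Nfkbia, which encodes an inhibitor of NF-kB, had 839 CPM, against 109 and 179.7 (2.53 ± 0.47, adjusted p = 0.0147). Both were also higher in T-marker cells, by 3.79 ± 0.52 and 2.18. Of 25 cytokine signalling genes 2 were higher, Bcl3 (adjusted p = 0.0468) and the feedback inhibitor Socs3 (3.01 ± 0.55, adjusted p = 0.0126), and Socs3 did not pass in T-marker cells (adjusted p = 0.841).

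A few cytotoxic genes rose, with much of the RNA in few cells. Of 11 tested granule genes 3 were higher, 0 lower and 8 not called, with a median of 1.05 in all gated cells and 1.30 in T-marker cells. Gzmb, the apoptosis-inducing granzyme B, had 297 UMIs in 12 LPS cells, 13 in 2 cells of control 1 and 29 in 9 cells of control 2, or 826, 94.6 and 39.8 CPM. The LPS level was higher (3.79 ± 0.59, adjusted p = 0.0046), 50.8% of it came from 1 cell, and without the highest cell of each library it was still called (adjusted p = 9.12e-07). Prf1, the pore protein perforin, had 292 CPM in the LPS library, against 50.9 and 24.7 (3.20 ± 0.53, adjusted p = 0.00685), with 61.9% of its LPS UMIs in 1 cell. Serpinb9, which protects killer cells from their own granzyme B, had 203 CPM in the LPS library, against 14.6 and 21.9 (3.39 ± 0.48, adjusted p = 0.00256). In T-marker cells these differences were 4.15 ± 0.54, 3.55 and 3.72 ± 0.55. At full depth the share of cells with at least 2 NK-marker UMIs moved with them. It was 26.3% in the LPS library, 18.75% in control 1 and 6.78% in control 2. After thinning to 1000 UMIs, cells with both T and NK markers made up 2.63%, 0% and 5.08% in that order. NK-marker cells under 2 T-marker UMIs then made up 7.89%, 6.25% and 1.69%. In T-marker cells under 2 NK-marker UMIs 1 of 8 tested granule genes was called, Gzmb (4.20 ± 0.78, adjusted p = 1.09e-05), while Serpinb9 did not pass (adjusted p = 0.195) and Prf1 had too few UMIs to be tested.

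NK receptor genes did not move as a group. Of 20 tested, 1 was higher and 1 lower (median 0.38). Fcer1g, an adaptor of activating receptors, had 687 CPM in the LPS library, against 160.1 in control 1 and 63.1 in control 2 (2.73 ± 0.59, adjusted p = 0.0359), but not in T-marker cells (adjusted p = 0.167). Klra9, an inhibitory Ly49 receptor with close copies, had 6 UMIs in 3 LPS cells, 27 in 2 cells of control 1 and 104 in 8 cells of control 2 (-3.28 ± 0.63, adjusted p = 0.0159). The activating receptor gene Klrk1 stood at 142 CPM in the LPS library, against 102 and 114, and did not pass (adjusted p = 0.851). In T-marker cells Klrc1, an inhibitory receptor for Qa-1 (2.86 ± 0.71, adjusted p = 0.00316), and Klrb1c (1.96 ± 0.60, adjusted p = 0.032) were higher, and without control 2 the difference of Klrc1 was 4.43.

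Ctla4, the checkpoint receptor that competes with CD28, was found almost entirely in the LPS library. It had 54 UMIs in 16 LPS cells (42.1%), 0 in control 1 and 2 in 2 cells of control 2 (1.69%), and after thinning to 1000 UMIs 7.89%, 0% and 0% of cells. Its level was 65-fold higher (95% counting interval 17.2 to 551) in all gated cells and 79.3-fold higher (20.9 to 672) in T-marker cells (6.23 ± 0.78, adjusted p = 1.08e-12), and it was still called in those without thymocyte markers (5.56, adjusted p = 3.25e-06). Of the 16 LPS cells with Ctla4, 1 had Foxp3, the regulatory T-cell factor, 8 had Tnfrsf18, 5 had Gzmb and 4 had Cd8b1. Ikzf2 was found in 4 of them, Cd4 in 3, Il2ra in 3 and Cd8a in 2. Among all 38 LPS gated cells these genes were found in 1, 17, 12, 8, 8, 5, 7 and 8 cells, in the same order. Most shares among the Ctla4 cells thus lay close to those over all LPS gated cells. Macrophages of the same libraries, chosen for few UMIs of the gate genes as described below, had no Ctla4 UMI in 158 LPS cells, 43 cells of control 1 and 157 of control 2.

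Other activation and checkpoint genes gave fewer calls. Of 14 tested, 0 were higher and 1, Tox, was lower. In T-marker cells the checkpoint gene Pdcd1 (2.52 ± 0.65, adjusted p = 0.00573) and the costimulatory gene Tnfrsf9 were higher, 2 of 12, and without control 2 their differences were 4.63 and 4.38. Of 11 tested genes of the CD4, CD8 and regulatory T lineages Ctla4 alone was called, and Cd8a stood at 80.6 CPM in the LPS library, against 94.6 and 254 CPM. Of 17 homing receptors and integrins 0 were called in all gated cells and 0 of 15 in T-marker cells. Of 18 glycolysis genes 0 were called, and in T-marker cells 1 of 14, Eno1, was lower (-2.14 ± 0.55, adjusted p = 0.00578).

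Genes of the T-cell receptor and of thymic development were among the decreases. Of 25 tested genes of the T-cell receptor and its signalling 0 were higher and 2 lower (median -1.25), and of 20 of thymocyte development 0 were higher and 3 lower (median -1.29). In T-marker cells 3 of 25 and 6 of 19 were lower (medians -0.95 and -1.26). The 25 include the 6 genes that chose these cells, none of which passed. In T-marker cells without thymocyte markers 0 of 23 and 0 of 11 were lower (medians -0.44 and -0.75). Cells without thymocyte markers were chosen by the absence of such genes and are fewer. A missing call among them therefore does not show that a decrease was absent. Of the 6 thymocyte development genes lower in T-marker cells, Ly6d had 18 UMIs in the LPS T-marker cells, 45 in control 1 and 157 in control 2. Of the UMIs in control 2, 55 came from the Siglech-led cell. The share of cells with at least 2 thymocyte-marker UMIs moved with these genes, at 21.1% in the LPS library, 43.75% in control 1 and 62.7% in control 2.

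Tox, a nuclear factor needed for CD4 lineage development, had 19 UMIs in 12 LPS cells, 53 in 11 cells of control 1 and 319 in 85 cells of control 2, or 52.8, 386 and 438 CPM (-2.95 ± 0.55, adjusted p = 0.0149). Themis, a T-cell receptor signalling protein of positive selection, had 25 CPM in the LPS library, against 87.3 and 237 (-2.72 ± 0.63, adjusted p = 0.0478). Among gated cells without thymocyte markers neither passed (Tox -0.94, adjusted p = 0.621; Themis -1.80, adjusted p = 0.445), nor did they in T-marker cells without them (adjusted p = 0.889 and 0.77). Trat1, which stabilises the receptor complex at the surface, had 4 UMIs in the LPS library, 14 in control 1 and 83 in control 2 (-3.23 ± 0.63, adjusted p = 0.0181), and -3.75 among gated cells without thymocyte markers, where it did not pass (adjusted p = 0.084). Tespa1, a signalling protein of thymocyte selection, had 58.4 CPM in the LPS library, against 240.2 and 291 (-2.17 ± 0.51, adjusted p = 0.0491). Id3, an inhibitor of E proteins induced by receptor signals, had 36.1 CPM, against 131 and 389.6 (-2.84 ± 0.65, adjusted p = 0.0468).

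The receptor genes themselves gave no call. Cd3d stood at 400.3 CPM in the LPS library, 1026 in control 1 and 1064 in control 2 (adjusted p = 0.423), Cd3g at 303, 1077 and 1132 CPM (adjusted p = 0.207), and Trac at 439, 400.3 and 833 CPM (adjusted p = 0.866). Cd3d and Cd3g lay lower in the LPS library than in both controls, and Trac lay between them. Ccr9, the gut- and thymus-homing chemokine receptor, stood at 197 CPM in the LPS library, against 349 and 682, and passed in T-marker cells (-1.71, adjusted p = 0.0455). Genes of naive and recirculating lymphocytes were not called in all gated cells, 0 of 13. In T-marker cells without thymocyte markers 3 of 13 were lower, namely S1pr1, the receptor for lymphocyte egress (-2.02, adjusted p = 0.0367), its regulator Klf2 (-1.89, adjusted p = 0.0142) and Igfbp4 (-1.95, adjusted p = 0.0162). In the same cells Cd8b1 was higher (3.73, adjusted p = 0.000302), but it was not called in all gated cells or in all T-marker cells. Leaving out cells with thymocyte markers left control 1 without any cell with Cd8a or Cd8b1. In control 2 the cells that stayed had at most 3 UMIs of these genes, against up to 15 in the LPS library.

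**Figure D3:**
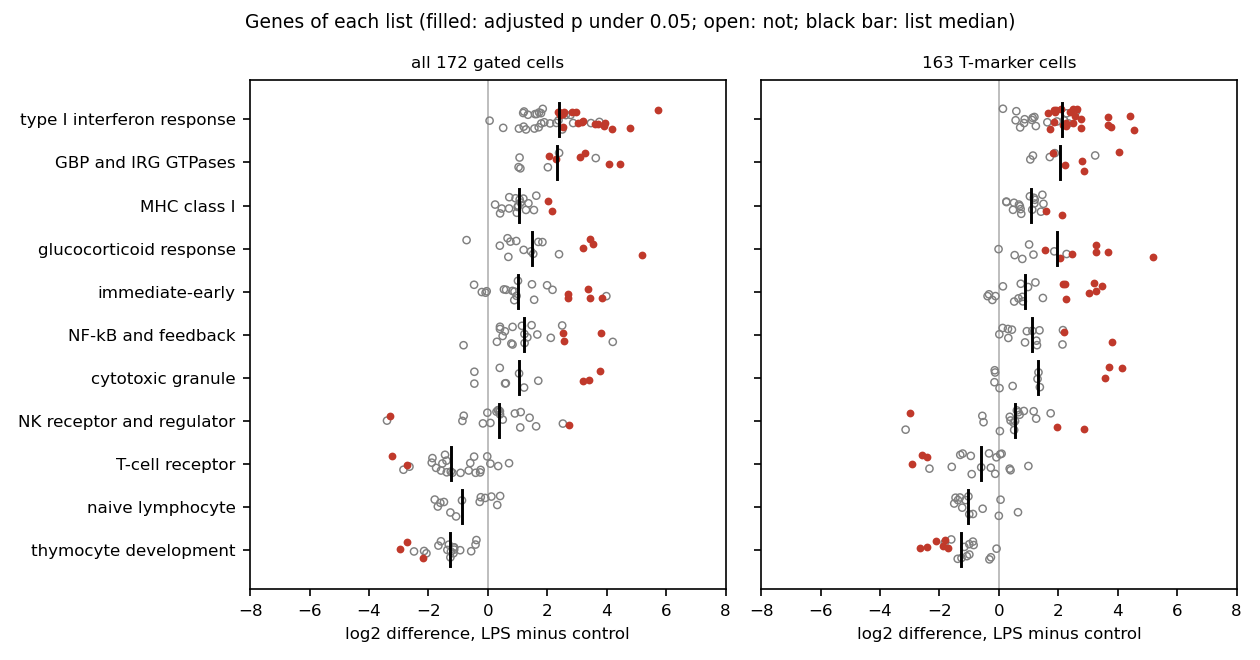
Fitted log2 difference, LPS minus controls, of each tested gene of 11 gene lists, in all 172 gated cells (left) and in the 163 T-marker cells (right, without the 6 T-marker genes), with filled points at an adjusted p under 0.05 and a black bar at the median. The interferon medians lie at 2.40 and 2.12 and the thymocyte medians at -1.29 and -1.26.

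The rule for naming genes took the largest calls in each direction. Among the higher genes in all gated cells, Saa3, an acute-phase protein, had 1066 LPS UMIs and none in either control, at least 856-fold higher against a floor of 3 UMIs over the controls, but 97% came from 1 cell. Lcn2, which encodes a siderophore-binding protein, was spread over 34 LPS cells with 166 UMIs and none in either control, at least 133-fold higher, and in T-marker cells at least 72.6-fold. Of the chemokine Cxcl10, 112 LPS UMIs and none in the controls gave at least 89.9-fold, and in T-marker cells 70.8% of 24 UMIs came from 1 cell. Ifitm1 (at least 86.7-fold) and Calca (at least 52.2-fold) rested on 1 cell, and so did 75.9% of the UMIs of Pla2g7 (at least 46.6-fold). Cfb (at least 56.2-fold), Il1rn (at least 30.5-fold), Ptges (at least 25.7-fold), Acod1 (at least 22.5-fold) and F10 (at least 20.9-fold), genes of activated myeloid and stromal cells, had 0 to 2 UMIs in the T-marker cells. AA467197, a gene without a clear role here, had 96 UMIs in the LPS library, 0 in control 1 and 1 in control 2, 231-fold higher (40.5 to 9226), and 183-fold (31.7 to 7368) in T-marker cells. Without control 2 the log2 differences, with 0.5 UMIs added, were 6.83 for Lcn2, 6.27 for Cxcl10, 6.22 for Ifitm1, 5.49 for Calca, 5.59 for Cfb, 5.32 for Pla2g7, 4.72 for Il1rn, 4.48 for Ptges, 4.29 for Acod1 and 4.18 for F10.

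In the T-marker cells the largest higher genes were Lcn2, Calca, Saa3 (26 UMIs in 12 cells, at least 26.9-fold), Cxcl10, AA467197, Cxcl2, Ctla4, Plaur, Neb, Mt2, Ramp3 and Ifit3b. Plaur, the urokinase receptor, was 65.3-fold higher there (10.5 to 2701). The giant muscle protein gene Neb was 43.5-fold higher (11 to 377). Without control 2 the log2 difference in T-marker cells was 5.79 for Lcn2, 4.38 for Saa3 and 4.27 for Cxcl10. Cxcl2, a neutrophil chemokine, had 92.3% of its LPS UMIs in 1 cell, and Ramp3, a receptor partner for adrenomedullin, lost its call without its highest cell (adjusted p = 0.218). In these cells Rora, a factor of innate lymphoid and type 17 cells, was also higher (2.68 ± 0.67, adjusted p = 0.00355).

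The named lower genes in all gated cells were Lef1os1 (0 UMIs in the LPS library, 2 in control 1 and 78 in control 2, at least 11.1-fold lower), Tcap, Sost, Cnn3, Basp1, Klra9, Trat1, Ldhb, Tox, Nab2, Id3 and Themis. Ldhb, a lactate dehydrogenase subunit, had 22.2 CPM in the LPS library, against 131 in control 1 and 215 in control 2 (-2.95 ± 0.57, adjusted p = 0.0159). Tcap and Sost, known from muscle and smooth muscle, had 0 and 1 UMIs in the LPS library, 2 and 4 in control 1, and 72 and 170 in control 2. They were at least 10.2-fold lower and 72.2-fold lower (12.8 to 2869.9), and Sost was also found in 1.27% of LPS macrophages, 9.3% in control 1 and 79% in control 2. In T-marker cells 5 of 8 tested smooth muscle markers were lower, among them Acta2 (-3.47, adjusted p = 1.5e-05) and Myl9 (-3.29 ± 0.65, adjusted p = 4.62e-05). These decreases rest on control 2, as without it the differences of Acta2, Myl9 and Tagln turned to 0.40, 0.77 and 0.28. The remaining genes named as lower in T-marker cells, Polb, Col3a1, Cavin1, Tpm2, Tsc22d1, Csrp2 and Eln, include several matrix and contractile genes. Without control 2 their log2 differences were -2.09 for Col3a1, -2.0 for Cavin1, -0.99 for Tpm2, -1.35 for Tsc22d1, -0.61 for Csrp2 and -1.35 for Eln, and in all gated cells those of Lef1os1, Tcap and Sost were -3.87, -3.87 and -3.13. Polb, a DNA repair polymerase, had 0 LPS UMIs there, against 6 and 41, at least 5.04-fold lower (log2 difference -4.80 without control 1).

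RNA from other cells in the droplets was read against macrophages of the same libraries, taken as barcodes with at least 5 UMIs of C1q genes and at most 1 of the gate genes (158, 43 and 157 cells). Their median depth was 2364.5, 1303 and 2144 UMIs, against 7908, 6958 and 5993 in the gated cells. Lcn2 was found in 96.2% of LPS macrophages and 0% in both controls, Mt2 in 94.9%, 2.33% and 12.7%, and Isg15 in 57.6%, 6.98% and 8.28%. Gzmb was found in 0.633%, 0% and 0% of macrophages and Ctla4 in none. Gzmb and Ctla4 were thus at or near 0 in macrophages, while Lcn2, Mt2 and Isg15 were present in most LPS macrophages. Macrophages with more than 1 UMI of the gate genes were left out. The low Gzmb and Ctla4 can therefore be partly set by this selection and by the lower depth, which was not tested. For Lcn2, Mt2 and Isg15 the shares cannot tell free RNA from RNA of the macrophages themselves, and this was not tested.

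**Figure D4:**
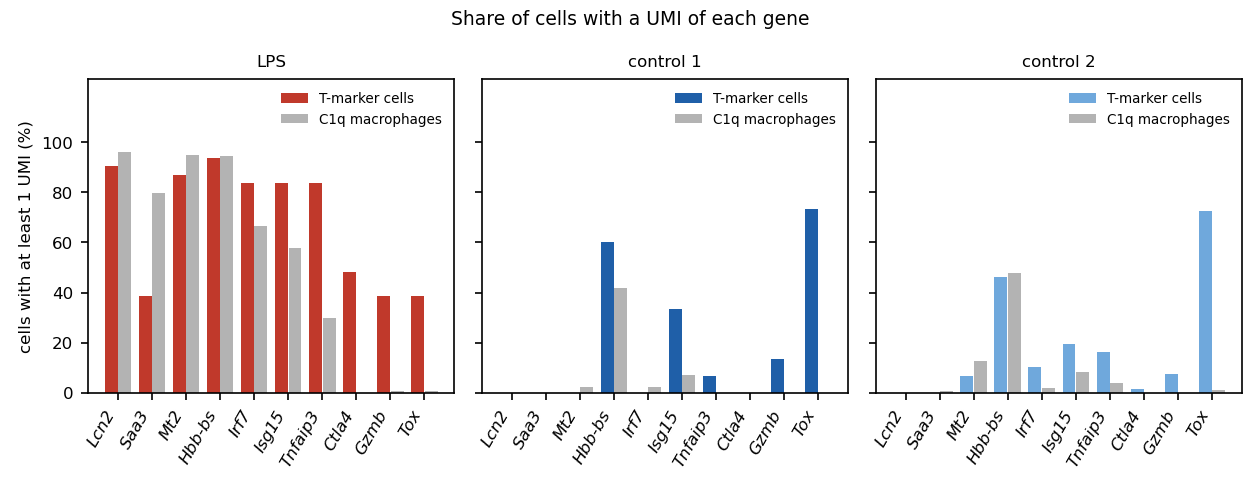
Share of cells with at least 1 UMI of 10 genes in T-marker cells (coloured) and in C1q macrophages (grey), with 1 panel each for the LPS library, control 1 and control 2. In the LPS library Lcn2, Saa3, Mt2 and Hbb-bs are found in most macrophages, and Ctla4 and Gzmb in almost none.

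The response to LPS was then compared between gated cells and these macrophages, as the interaction of cell class and treatment with library as a block. The response was higher in gated cells for 105 of 8673 genes (1.21%) and lower for 24 (0.277%), and with T-marker cells for 43 of 8160 (0.527%) and 21 (0.257%). Junb differed by 1.84 ± 0.43 (adjusted p = 0.0029), with 1501 CPM in the LPS gated cells, against 211 and 254 in their controls, and 335.7 CPM in the LPS macrophages, against 89.31 and 231 in theirs. Txnip differed by 3.75 ± 0.46 (adjusted p = 5.76e-13), Zfp36l2, an RNA-decay factor, by 3.37 ± 0.46 (adjusted p = 1.77e-10) and Serpinb9 by 4.77 ± 0.91 (adjusted p = 3.22e-05), all positive. A positive difference can come from a rise in gated cells, a fall in macrophages or both. Txnip and Zfp36l2 were called higher in T-marker cells but not in all gated cells. The Serpinb9 difference was larger than its rise in gated cells. Ccl5, a chemokine of effector lymphocytes and macrophages, ran the other way (-7.90 ± 0.46, adjusted p = 2.06e-60). It had 2935 CPM in the LPS gated cells, against 298 and 890.2 in their controls, and 7816 CPM in the LPS macrophages, against 0 and 9.759 in theirs. These low macrophage control levels rest on few UMIs, so the SE of Ccl5 is likely too small.

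For several shared genes no difference between the responses was found. The difference was -0.97 ± 0.57 for Isg15 (adjusted p = 0.777), -1.80 ± 0.90 for Irf7 (adjusted p = 0.589), 0.09 ± 0.56 for Gbp2 and -0.79 ± 0.73 for Fkbp5 (adjusted p = 0.992). It was 0.16 ± 0.97 for Tnfaip3 and 0.19 ± 0.45 for Nfkbia. Errors of this size leave room for differences of more than 1 log2 unit in most of these genes.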

How the data were processed

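The authors deposited UMI counts that were not normalized, 1 matrix of genes by barcodes for each library. The submitters' processing notes list Cell Ranger 3.1, mm10, R 4.2.1 and Seurat 4.2.0. The annotation release and the barcode selection were not given in the sources used here, and deposited cell types were not used. Of 12082 barcodes, 8284 passed the minimum of 500 UMIs and 300 genes and the mitochondrial limit of 15%, namely 5156 in the LPS library, 431 in control 1 and 2697 in control 2. The matrices cover 32285 genes. The members, the gene lists and the markers were chosen with earlier results of these data known. The labels do not number the controls, so control 1 and control 2 are named in record order, and nothing beyond the pooling says how far libraries are separate experiments. So p-values measure only the spread between these samples, which may be technical.

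UMIs of the gated cells were summed per library, since cells are not replicates, and tested with edgeR 4.0.16 (quasi-likelihood, TMM, filterByExpr, Benjamini-Hochberg at 0.05 over all genes tested, R 4.3.3), with 1 residual degree of freedom. SEs are the log2 difference over the square root of its F statistic. They can fall below the counting error where a group has few UMIs. CPM values are plain UMIs per 1000000 with exact Poisson 95% intervals. A group at 0 was set to a floor of 3 UMIs over the group, and 1 to 3 UMIs give a ratio with a 95% counting interval. Tests on T-marker cells, and on cells without T markers, were planned only with 20 cells in every library, which control 1 did not reach. The T-marker tests reported were added later as alternatives. Genes named were up to 12 each way with the largest fitted change among called genes, averaging 20 CPM or more, and an LPS value outside both controls, without rule, predicted, mitochondrial, ribosomal protein, haemoglobin and receptor variable genes. Genes of the lists are named beside them by role. DESeq2 1.42.0, other filters and left-out cells or libraries were tried. The tests were tested on simulated data.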

Additional observations from a re-analysis of the deposited data

Results flagged for a closer look

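For 17 named or listed genes the response to LPS differed between gated cells and C1q macrophages of the same libraries, by the edgeR interaction test with library as a block. Over all 8673 genes tested it was higher in gated cells for 1.21% and lower for 0.277%. The 17 are not set against the number of named or listed genes tested, so no excess is read from them. Values are the log2 response in gated cells minus that in macrophages, and both classes come from 1 LPS library and 2 controls. A positive value can therefore come from a rise in gated cells, a fall in macrophages or both. Immediate-early genes and regulators of activation had positive values, with Fos at 3.07 (adjusted p = 4.5e-05), Junb at 1.84 (adjusted p = 0.0029), Dusp1 at 2.35 (adjusted p = 0.00156), Rgs1 at 3.53 (adjusted p = 8.57e-09), Zfp36l2 at 3.37 (adjusted p = 1.77e-10) and Txnip at 3.75 (adjusted p = 5.76e-13). Dusp1 had 514.3 CPM in LPS macrophages, against 55.82 in control 1 and 328.5 in control 2, and did not pass there (adjusted p = 0.272). Serpinb9 (4.77, adjusted p = 3.22e-05), Rora (3.04, adjusted p = 0.0415) and Ifngr1 (2.15, adjusted p = 0.00213), genes of killer and helper cells and of interferon gamma sensing, also had positive values. Zfp36l2, Txnip, Rora and Ifngr1 were called higher with LPS in T-marker cells but not in all gated cells.

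Among chemokines Ccl3 (7.46, adjusted p = 5.78e-11), Ccl4 (5.92, adjusted p = 7.71e-13) and Cxcl2 (4.95, adjusted p = 7.88e-07) responded more in gated cells, and Ccl5 (-7.90, adjusted p = 2.06e-60) more in macrophages. In the LPS gated cells 94.7% of the Ccl3, 61.2% of the Ccl4 and 92.3% of the Cxcl2 UMIs came from 1 cell. Pla2g7 stood at 7.43 (adjusted p = 1.46e-06), Fcer1g at 2.88 (adjusted p = 3.47e-12), Ly6a at -1.94 (adjusted p = 0.0343) and Id3 at -2.66 (adjusted p = 0.00873).

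With T-marker cells in place of all gated cells, Pla2g7 (adjusted p = 0.793), Id3 (adjusted p = 0.0822), Fcer1g (adjusted p = 0.341), Ccl3 and Ly6a (adjusted p = 0.995) no longer passed, and the other 12 of the 17 did.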

How the results depend on the processing

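No paired analysis was possible because the labels give no replicate numbers that the groups share. With 120 genes higher and 20 lower in all gated cells, the count of higher genes was 29 by DESeq2, 226 with no filter on low counts, 235 at no more than 10% mitochondrial UMIs, 24 with cells thinned to 1000 UMIs (725 genes tested) and 68 in T-marker cells without thymocyte markers. The count of lower genes was 0 by DESeq2, 7 with DESeq2 size factors, 63 with no filter, 63 with a gate of at least 5 UMIs over 3 genes, 85 at no more than 10% mitochondrial UMIs, 68 without cells with thymocyte markers, 7 with thinned cells, and 35 without Gm42418, AY036118, mitochondrial and haemoglobin genes. It was 62 in T-marker cells, 52 in those with under 2 NK-marker UMIs, 47 without each gene's highest cell per library, and 59 for both T-marker cells and no highest cell. Requiring 1000 UMIs per cell changed neither count. The last-named subsets were chosen after seeing the data, and the causes were not tested except that thinning and smaller subsets leave fewer genes or cells.

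Of the 24 genes named in all gated cells, DESeq2 left 8 past the threshold and 14 not, its size factors 15 and 9, T-marker cells without thymocyte markers 5 and 8, and the removal of each highest cell 16 and 2, where a gene could be tested. No named gene turned its direction under any of these, and all 24 kept it without either control, where 1 library against 1 gives a value and no test.

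The difference between gated cells and macrophages was higher for 105 genes, and for 43 with T-marker cells. It was lower for 24, and for 37 among gated cells without thymocyte markers. The T-marker share with the stricter gate was 96.7% in the LPS library, 100% in control 1 and 100% in control 2, and with thinned cells 55.3% in the LPS library and 94.1% in control 2. The thymocyte-marker share was 5.26% in the LPS library with thinned cells, and in control 2 72.03% at 1 UMI and 31.4% with thinned cells.

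The planned tests of T-marker cells alone and of cells without T markers, with their alternatives, were not run as planned, since control 1 had 15 and 1 such cells. Leaving out cells with more than 2 UMIs of other-cell markers left 0 cells in the LPS library, 10 in control 1 and 1 in control 2 and gave no value. With 16 cells in control 1, a gene at 0 there is limited by depth.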

Other observations

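A few chemokine genes rose, with much of the RNA in few cells. Of 11 tested effector cytokine and chemokine genes 4 were higher with LPS in all gated cells (Cxcl10, Ccl3, Cxcl2 and Ccl4) and 7 not called. Over all genes tested 1.92% were higher. As given above, most LPS UMIs of Ccl3, Ccl4 and Cxcl2 came from 1 cell each. An LPS cell without T markers held 71 Ccl3 and 52 Ccl4 UMIs. In T-marker cells 4 of 9 were higher, against 2.85% of all genes tested there. Ccl5 passed in these cells (1.92 ± 0.59, adjusted p = 0.0339), with 2371 CPM in the LPS library, against 366 in control 1 and 902 in control 2. Of 14 survival and apoptosis genes 1 was higher, the cell-cycle inhibitor Cdkn1a, with 46 UMIs in 14 LPS cells, 0 in control 1 and 9 in 8 cells of control 2 (3.78 ± 0.68, adjusted p = 0.0126), and it did not pass in T-marker cells (adjusted p = 0.209). The death-promoting gene Bcl2l11 passed there instead (1.85, adjusted p = 0.0067, and 4.03 without control 2).

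Haemoglobin genes, which lymphocytes do not make, were higher with LPS, with Hba-a1 at 173 UMIs in the LPS library, 6 in control 1 and 37 in control 2 (3.36 ± 0.45, adjusted p = 0.00202). Of its LPS UMIs 80.9% came from 1 cell, and 63.3% of LPS macrophages, 44.2% of those of control 1 and 19.1% of those of control 2 also held it. Haemoglobin copies share sequence, so single values are uncertain.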
